A study of Mus musculus with 7 samples.

Results

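The genes described here are 9 components of the JAK-STAT cytokine pathway in mouse spleen after lipopolysaccharide (LPS): the transcription factors Stat2, Stat4, Stat5a and Stat6, the kinase Jak2, the feedback inhibitors Socs1, Socs2 and Cish, and the phosphatase Ptpn2. They were taken by symbol from a deposited table of 17920 genes, and each symbol was found there. All 9 had a mean FPKM (fragments scaled to transcript length and to the mapped fragments of the library) of at least 1 over the 7 libraries, the level above which 11378 genes were tested. The study compared wild-type mice with mice lacking GdX, a ubiquitin-like protein that is also called UBL4A and is encoded by the X-linked gene Ubl4a. Mice were C57BL/6 and 8 weeks old, and every one of them had received 20 mg/kg LPS intraperitoneally, so no spleen without LPS stands beside these values. The wild-type groups held 2 libraries at 90 min and 2 at 6 h after LPS. The groups labelled GdX-/-, given as GdX-/Y in the treatment protocol, held 2 libraries at 90 min and 1 at 6 h. The loss of GdX was present in the whole animal. The series design names 4 wild-type and 3 GdX-/- mice, which is 1 mouse for each library. RNA came from the whole crushed spleen, although the source name is splenocytes.

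Cytokines such as interferons and interleukins bind receptor chains that carry Janus kinases (JAKs), which phosphorylate STAT proteins, and these then enter the nucleus as dimers and switch on target genes. STAT2 and IRF9 are parts of ISGF3, the complex that type I interferon uses, while STAT4 serves interleukin-12, STAT5 serves interleukin-2, growth hormone and several colony-stimulating factors, and STAT6 serves interleukin-4 and interleukin-13. JAK2 serves the receptors of interferon-gamma, erythropoietin and several colony-stimulating factors, among others. The SOCS family closes the loop: Socs1, Socs2 and Cish are themselves induced by STATs, and their proteins bind JAKs or receptors and block the signal. Ptpn2 encodes TC-PTP, a phosphatase that removes phosphate from JAK1, JAK3 and nuclear STATs. In the spleen LPS acts on macrophages and dendritic cells through TLR4, and the type I interferon they release reaches the surrounding lymphocytes through this pathway.

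Promoter sequences are shown for Cish, Socs1 and Stat2, because these are a feedback gene of STAT5, a feedback gene of interferon signalling and the STAT of ISGF3, and because each held a match to the DNA motif of a STAT complex. RefSeq windows of 300 bases (250 before to 50 after the start, GRCm38.p6) matched 7 of the 9 members, with 9 windows in all. Socs2 and Ptpn2 have no entry in that table. Both strands were searched without mismatch for TTCNNNGAA, the GAS motif of STAT dimers, its stricter form TTCCNGGAA, which lies within the first, the wider form preferred by STAT6 (TTC, any 4 bases, GAA), and the core of the interferon-stimulated response element of ISGF3 (GAAA, any 2 bases, GAAA). Capitals mark the matches.
Cish, chr9:107296409-107296678, plus strand: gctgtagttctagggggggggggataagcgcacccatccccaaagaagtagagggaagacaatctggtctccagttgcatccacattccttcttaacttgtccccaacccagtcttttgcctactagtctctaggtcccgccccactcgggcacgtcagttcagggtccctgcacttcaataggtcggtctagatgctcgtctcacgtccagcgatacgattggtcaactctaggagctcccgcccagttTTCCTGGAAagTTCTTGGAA
Socs1, chr16:10785537-10785786, minus strand: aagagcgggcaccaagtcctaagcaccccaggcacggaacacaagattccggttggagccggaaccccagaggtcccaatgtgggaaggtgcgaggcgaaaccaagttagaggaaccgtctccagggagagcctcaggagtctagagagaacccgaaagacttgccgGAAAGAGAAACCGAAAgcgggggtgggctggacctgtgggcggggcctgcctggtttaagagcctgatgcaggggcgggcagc
Stat2, chr10:128270248-128270497, plus strand: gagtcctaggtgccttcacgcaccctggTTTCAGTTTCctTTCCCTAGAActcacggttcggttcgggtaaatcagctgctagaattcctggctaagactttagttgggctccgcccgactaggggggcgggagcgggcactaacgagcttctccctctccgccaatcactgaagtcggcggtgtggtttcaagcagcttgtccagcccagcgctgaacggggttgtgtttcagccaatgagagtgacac
The Cish window held 2 GAS matches, TTCCTGGAA at position 1 from the transcription start and TTCTTGGAA at position 12. A GAS match was present in 8.3% of all 32851 windows, 2 or more in 0.457%, and the stricter form, which the first of the Cish matches meets, in 1.15%. The Socs1 window held 2 overlapping matches to the interferon core, GAAAGAGAAA at position -83 and GAAACCGAAA at position -77. That core was present in 3.44% of all windows, and 2 or more matches in 0.225%. The Stat2 window held the interferon core on the reverse strand at position -222, read there as TTTCAGTTTC, and the wider form TTCCCTAGAA at position -210, a form found in 6.95% of windows. Of the 2 Stat4 windows, the one at chr1:52007990-52008289 held the interferon core GAAAGTGAAA at position -97. These letters were not found in the windows of Stat5a, Stat6 or Jak2.

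Depth was estimated from the steps between low FPKM values at 18100000 to 20800000 fragments per library, so it was close to equal between groups. Ubl4a did not serve as a check of the labels, because the deleted part of the gene is not given in the sources used here: its FPKM was 5.62 and 7.50 in wild type at 90 min, 4.03 and 5.69 in GdX-/- at 90 min, 11.9 and 14.0 in wild type at 6 h, and 10.6 in GdX-/- at 6 h. The readthrough gene Gm44504, which overlaps Ubl4a on the X chromosome and was picked after its values were seen, was at 0.66 to 1.86 in the 3 libraries labelled GdX-/- and at 14.5 to 51.1 in the 4 wild-type libraries. Defining markers of B cells, T cells, NK cells, neutrophils, red pulp macrophages and erythroid cells were detected in every library, and 5 of 6 pancreas markers were at 0 in at least 1 library. The wild-type replicates differed from each other with transcript length: across 11231 genes, which are not independent replicates, Spearman's rho between length and the replicate difference was -0.447 at 90 min and -0.588 at 6 h, and -0.162 between the 2 GdX-/- libraries at 90 min. The long members took part. Stat2 was 1.04 lower on the log2(FPKM + 1) scale in wild-type replicate 1 than in replicate 2 at 90 min and 1.25 lower at 6 h, and Stat6, Stat5a and Jak2 were 1.04 to 1.15 lower in replicate 1 at 6 h. Ptpn2, a shorter transcript, was 0.34 and 0.45 higher in replicate 1. The part of this pattern in the values below was not tested beyond repeating each comparison with the length trend of every library removed.

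**Figure D1:**
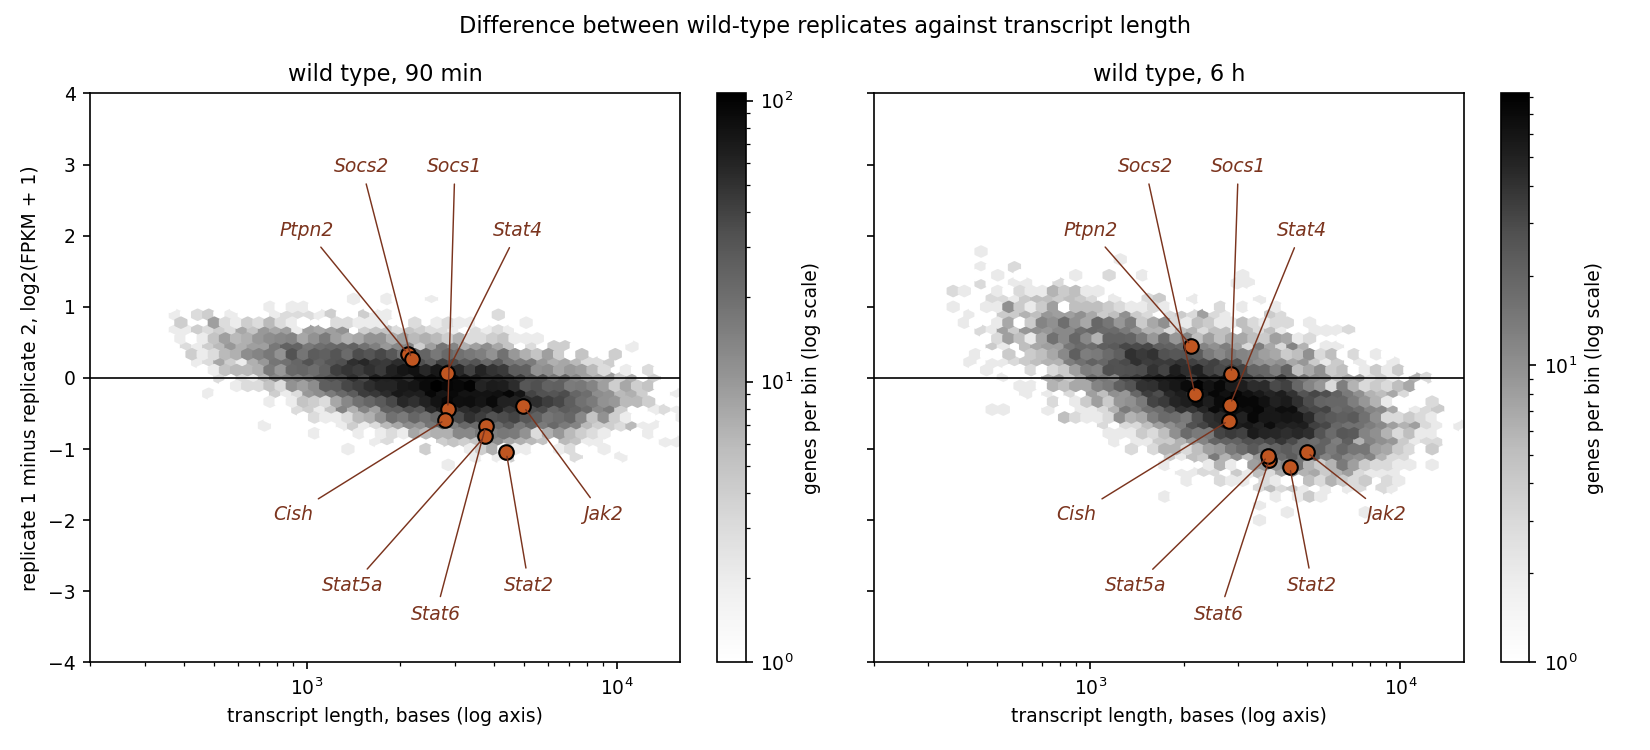
Difference between the 2 wild-type replicates (replicate 1 minus replicate 2, log2(FPKM + 1), vertical axis) against transcript length in bases (log axis) at 90 min (left) and 6 h (right), with all genes as grey bins and the 9 members as orange points. Stat2 lies at -1.04 and -1.25, and Ptpn2 lies above 0 in both panels.

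By FPKM, a level per length, Socs1 was the most abundant of the 9 in 6 of the 7 libraries, and only in GdX-/- at 6 h did Stat2 stand above it. Mean FPKM in wild type at 90 min was 332 ± 71.1 for Socs1, 71.9 ± 23.6 for Stat6, 67.9 ± 11.3 for Ptpn2, 49.9 ± 24.9 for Stat2, 46.4 ± 1.58 for Stat4, 39.9 ± 7.93 for Jak2, 27.3 ± 11.1 for Stat5a, 24.1 ± 7.10 for Cish and 11.4 ± 1.57 for Socs2 (SD, n = 2 each). Neighbours in this order from Stat6 to Cish had overlapping libraries, whereas both libraries of Socs1 stood above and both of Socs2 below those of all the others. At 6 h in wild type the order from the top was Socs1 at 197 ± 4.94, Ptpn2 at 72.0 ± 16.1, Stat2 at 53.9 ± 31.6, Stat6 at 35.8 ± 19.7, Jak2 at 24.3 ± 12.4, Stat4 at 22.9 ± 4.40, Socs2 at 22.6 ± 2.67, Stat5a at 20.6 ± 11.1 and Cish at 9.93 ± 3.16 (SD, n = 2 each). Socs2 thus moved from the lowest place to the seventh, above Stat5a and Cish, although its 2 libraries overlapped those of Stat6, Jak2, Stat4 and Stat5a.

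**Figure D2:**
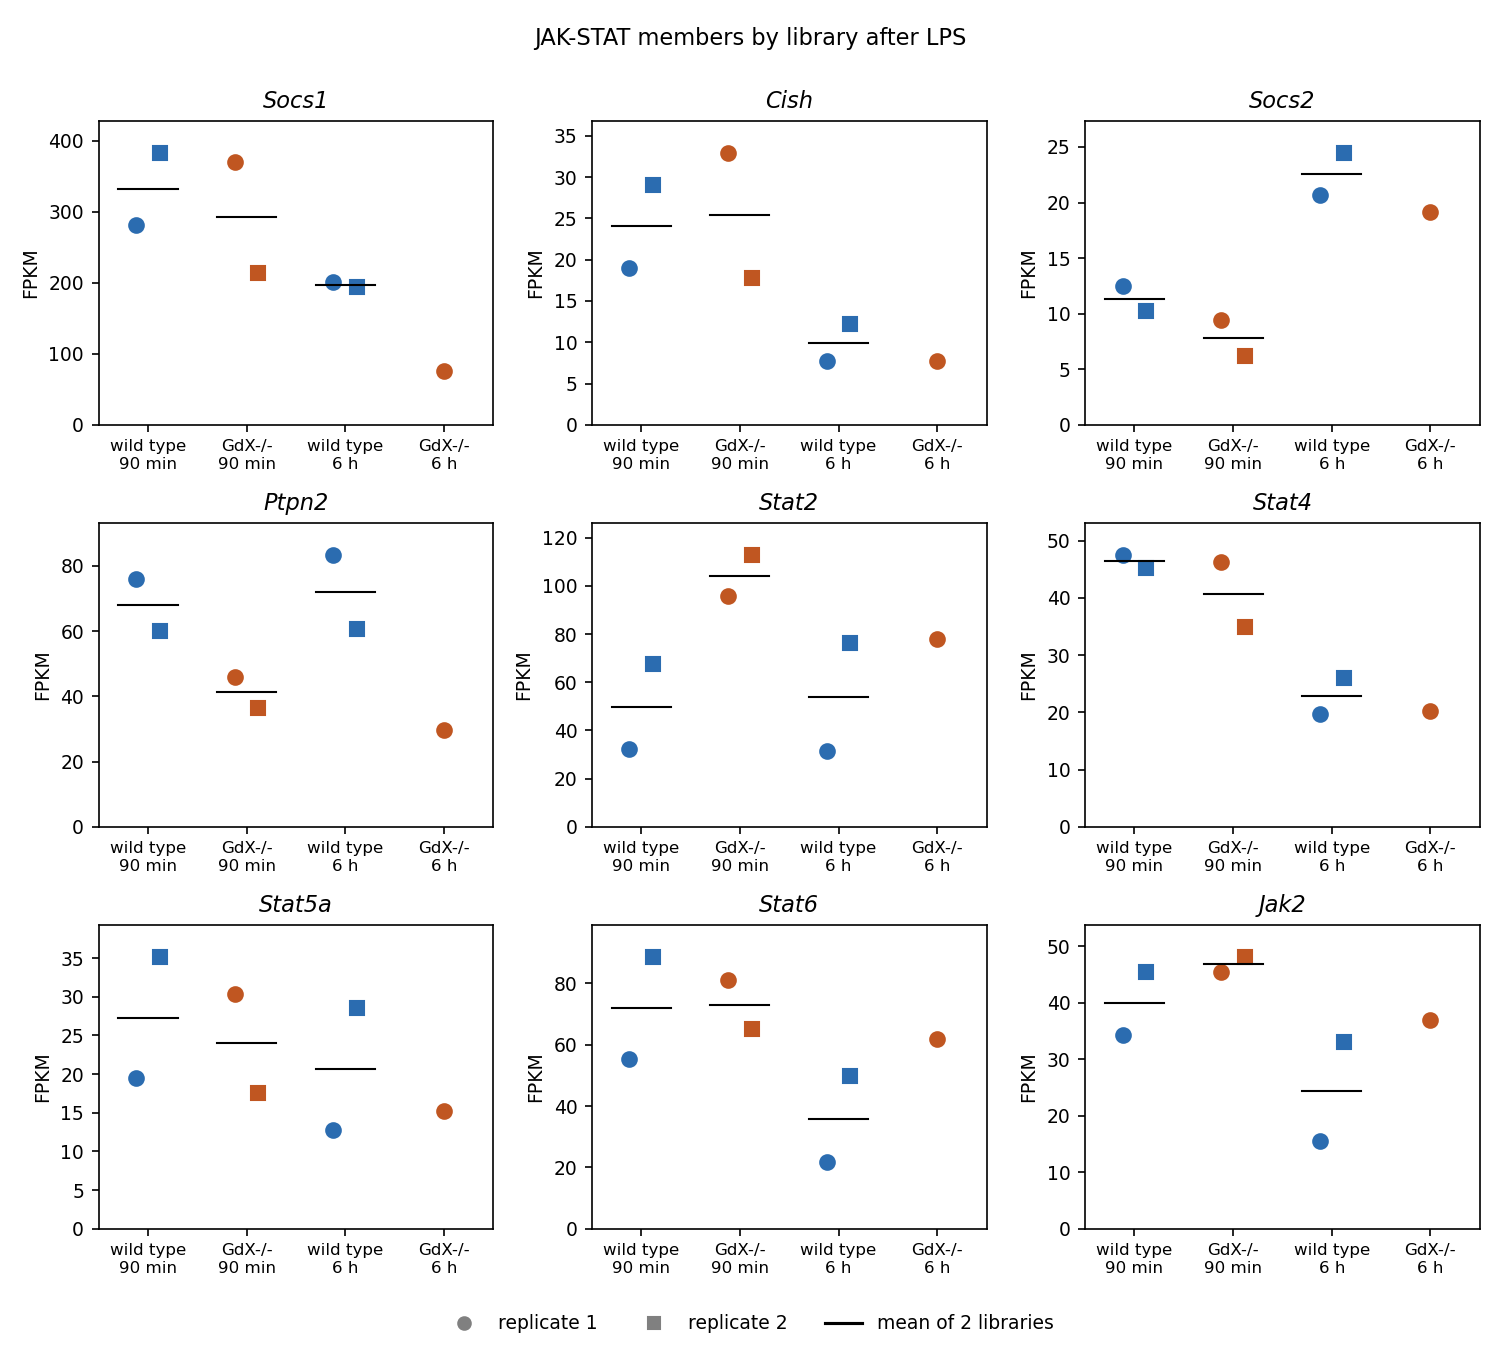
FPKM of each member (vertical axes, from 0) in each library, by genotype and time after LPS, with circles and squares for replicates 1 and 2 and a line at the mean of 2 libraries. Socs1, Cish and Stat4 lie lower at 6 h than at 90 min, Socs2 lies higher, and Ptpn2 is lower in every GdX-/- library than in any wild-type library.

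Between 90 min and 6 h after LPS, with genotype as a covariate (4 libraries against 3), 4 of the 9 members changed: Socs1, Cish and Stat4 fell and Socs2 rose. Among all 11378 genes tested, 2.65% passed in the lower and 2.79% in the higher direction (5.44% in either). These are 301 genes lower and 318 higher, which became 578 and 305 with quantile normalization, 215 and 112 with libraries rescaled without globin genes, and 815 and 392 with the length trend removed. The test was limma on log2(FPKM + 1) with Benjamini-Hochberg adjustment and a threshold of 0.05. Libraries of the 2 times did not overlap within either genotype, in the same direction, for 5 members that were lower at 6 h (Socs1, Cish, Stat4, Jak2 and Stat6; 9.6% of all genes) and for 1 that was higher (Socs2; 24%). The median difference of the 9 was -0.59, against 0.14 over all genes. None of the 4 calls held when all 17920 genes were tested without a filter on low values, where the adjusted p-values of limma were 0.064 for Stat4, 0.075 for Socs2, 0.090 for Cish and 0.112 for Socs1. In wild type alone (2 against 2), where 6.32% of all genes passed as lower and 10.7% in either direction, Stat4 was the 1 member that passed. There 719 genes were lower and 499 higher, and 517 and 191 with the same rescaling. The comparisons share libraries: those of wild type at 90 min enter both the time difference in wild type and the genotype difference at 90 min.

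**Figure D3:**
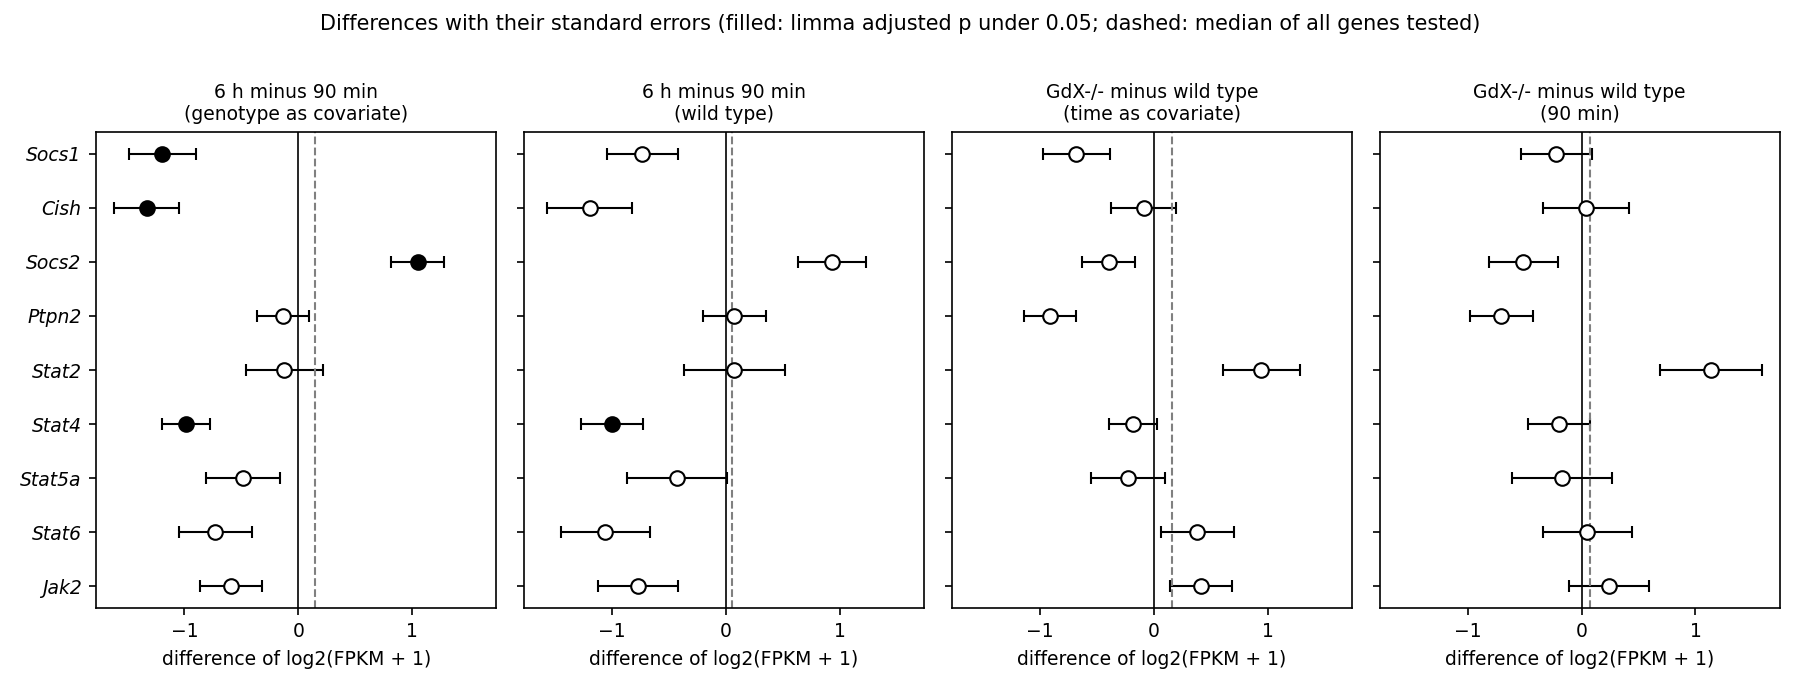
Difference of log2(FPKM + 1) for each member with its standard error, for time with genotype as a covariate, time in wild type, genotype with time as a covariate and genotype at 90 min, from left to right. Filled points have a limma adjusted p under 0.05 (4 members, 1 member, none and none), and the dashed line is the median of all genes tested.

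Socs1, whose protein inhibits JAK kinases directly and limits interferon signalling, measured 282 and 383 FPKM in wild type at 90 min, 370 and 214 in GdX-/- at 90 min, 201 and 194 in wild type at 6 h, and 75.5 in GdX-/- at 6 h. All 3 libraries at 6 h lay below all 4 at 90 min. With genotype as a covariate Socs1 fell by 1.19 in log2(FPKM + 1) (SE 0.29, limma adjusted p = 0.0435), or 2.29-fold. The call was lost without a trend on mean expression, and without wild-type replicate 2 at either time or any 1 of the GdX-/- libraries (lowest and highest limma adjusted p 0.054 and 0.161). The difference was -0.73 without the GdX-/- library at 6 h. In wild type alone the difference was -0.73 (SE 0.31, limma adjusted p = 0.159). In GdX-/- it was -1.88 from 2 libraries to 1, with no replicate at 6 h. The gap between the genotypes in this time difference was -1.15 (SE 0.49, limma adjusted p = 0.480), where the lone library is assumed to vary like the others, and 0.0703% of all genes passed that test. No member passed it, and Socs1 was the 1 member with an unadjusted p under 0.05 (9.98% of all genes).

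Cish, an inhibitor that STAT5 induces and that acts at the interleukin-2 and related receptors, measured 19.0 and 29.1 FPKM in wild type and 32.9 and 17.8 in GdX-/- at 90 min. At 6 h it measured 7.69 and 12.2 in wild type and 7.78 in GdX-/-. Every library at 6 h lay below every library at 90 min, and the genotypes overlapped at both times. Cish fell by 1.33 in log2(FPKM + 1) with genotype as a covariate (SE 0.29, limma adjusted p = 0.0299), or 2.51-fold, the largest fold of the 9 in this comparison. Without wild-type replicate 2 at 90 min, wild-type replicate 1 at 6 h or the GdX-/- library at 6 h the call was lost (limma adjusted p = 0.086, 0.055 and 0.071). In wild type alone its difference was -1.20 (SE 0.38, limma adjusted p = 0.0731), which passed with the length trend removed (-1.24, limma adjusted p = 0.0481), and in GdX-/- it was -1.52.

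Socs2, the feedback inhibitor best known for limiting growth hormone signalling, ran the other way. It measured 12.5 and 10.3 FPKM in wild type and 9.39 and 6.17 in GdX-/- at 90 min, and 20.7 and 24.5 in wild type and 19.2 in GdX-/- at 6 h. All libraries at 6 h lay above all at 90 min, and at each time those of GdX-/- lay below those of wild type. Socs2 rose by 1.05 in log2(FPKM + 1) with genotype as a covariate (SE 0.23, limma adjusted p = 0.0340), or 2.07-fold. The median of all genes was 0.14 in this comparison, and the call was lost with quantile normalization (0.92, limma adjusted p = 0.051) and when libraries were rescaled to an equal sum without globin genes (0.97, limma adjusted p = 0.086). It was also lost without either wild-type library at 90 min, without wild-type replicate 2 at 6 h, without GdX-/- replicate 2 at 90 min or without the GdX-/- library at 6 h (limma adjusted p from 0.062 to 0.111).

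Stat4, the STAT of interleukin-12 signalling in T cells and NK cells, measured 47.5 and 45.3 FPKM in wild type and 46.3 and 35.0 in GdX-/- at 90 min, and 19.8 and 26.0 in wild type and 20.2 in GdX-/- at 6 h. No library at 6 h reached any at 90 min. Stat4 fell by 0.98 in log2(FPKM + 1) with genotype as a covariate (SE 0.21, limma adjusted p = 0.0293) and by 1.00 in wild type alone (SE 0.27, limma adjusted p = 0.0462). The first call was lost without any 1 of the wild-type libraries (limma adjusted p from 0.056 to 0.118). The second was lost when only the 4 wild-type libraries were fitted (limma adjusted p = 0.051), without the filter on low values (0.075), with the rescaling without globin genes (0.082), without the trend (0.055), without wild-type replicate 1 or 2 at 90 min (0.259 and 0.208), without replicate 1 at 6 h (0.114) and without either GdX-/- library at 90 min (0.054 and 0.053). T cell markers moved with it in wild type: the summed FPKM of 9 T cell markers was 417 and 359 at 90 min and 186 and 164 at 6 h, and 5 of the 9 passed as lower, where 6.32% of all genes did. The sum of 7 NK cell markers was 82.8 and 92.1 at 90 min and 67.3 and 71.8 at 6 h in wild type, and 1 of the 7 passed as lower. In GdX-/- the T cell sums were 309 and 400 at 90 min and 343 at 6 h and the NK cell sums 114, 141 and 130, while Stat4 there was 0.96 lower at 6 h. In a bulk spleen, fewer cells of a type and less RNA per cell cannot be told apart. The part of T cells and NK cells in the Stat4 difference was not tested.

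Stat6 and Jak2 stayed short of the threshold for time, and both were low in wild-type replicate 1 at 6 h. Stat6 measured 55.3 and 88.6 FPKM in wild type and 81.0 and 65.0 in GdX-/- at 90 min, and 21.9 and 49.7 in wild type and 61.8 in GdX-/- at 6 h. Jak2 measured 34.3 and 45.5 FPKM in wild type and 45.5 and 48.1 in GdX-/- at 90 min, and 15.5 and 33.1 in wild type and 37.0 in GdX-/- at 6 h. Within each genotype the times did not overlap for either gene. The time difference with genotype as a covariate was -0.73 for Stat6 (SE 0.32, limma adjusted p = 0.173) and -0.59 for Jak2 (SE 0.27, limma adjusted p = 0.193), and in wild type alone -1.06 and -0.77 (limma adjusted p = 0.113 and 0.184). Without wild-type replicate 2 at 6 h both passed in wild type (Stat6 -1.63, limma adjusted p = 0.00152; Jak2 -1.29, limma adjusted p = 0.00965), which leaves replicate 1 as the lone library at 6 h, with a spread taken from the other groups. Without replicate 1 at 6 h the differences in wild type shrank to -0.48 for Stat6 and -0.25 for Jak2 (limma adjusted p = 0.364 and 0.663). B cells, which use Stat6 for interleukin-4 responses, had their 9 markers at a summed FPKM of 1702 and 1621 at 90 min and 547 and 615 at 6 h in wild type, and 1416, 2364 and 2018 in the 3 GdX-/- libraries. Their part in the Stat6 values was not tested.

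Stat5a, one of the paired STAT5 genes, measured 19.4 and 35.1 FPKM in wild type and 30.4 and 17.5 in GdX-/- at 90 min, and 12.8 and 28.5 in wild type and 15.3 in GdX-/- at 6 h. Its replicates differed by more than its groups, and the libraries of the times and genotypes overlapped, apart from GdX-/- at 6 h, which lay below both GdX-/- libraries at 90 min. No comparison passed for Stat5a: time gave -0.49 (SE 0.33, limma adjusted p = 0.367) and genotype with time as a covariate -0.23 (SE 0.33, limma adjusted p = 0.668).

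No member passed the test between the genotypes. At 90 min 0.0176% of all genes passed (2 genes), and with time as a covariate 0.0439% (5 genes). At an unadjusted p under 0.05 there were 2 members at 90 min (Stat2 and Ptpn2), where 7.58% of all genes reached it, and 3 with time as a covariate (Ptpn2, Stat2 and Socs1), where 27% did. Genotypes did not overlap at 90 min for Stat2 and Jak2, which were higher in GdX-/- (24.1% of all genes), and for Ptpn2 and Socs2, which were lower (23.4%). The same 4 kept apart at both times, against 19% of all genes in the higher and 13% in the lower direction. For Jak2 the gap at 90 min was that between 45.46 and 45.47 FPKM, and its difference with time as a covariate was 0.42, or 0.0543 with the length trend removed. The median difference of the 9 was -0.18 with time as a covariate, and that of all genes 0.16, which became -0.01 with quantile normalization and 0.36 with the rescaling without globin genes.

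Ptpn2 showed the smallest p-value of the 9 between the genotypes with time as a covariate. It measured 75.9 and 60.0 FPKM in wild type and 46.1 and 36.4 in GdX-/- at 90 min, and 83.3 and 60.6 in wild type and 29.8 in GdX-/- at 6 h. All 3 GdX-/- libraries lay below all 4 wild-type libraries, and the times overlapped in wild type. The difference was -0.91 with time as a covariate (SE 0.23, limma adjusted p = 0.101), or 1.89-fold, and -0.71 at 90 min (SE 0.28, limma adjusted p = 0.621). It kept its direction under all 15 alternatives of the first, from -1.05 to -0.68. It passed in 1 of them, without GdX-/- replicate 1 at 90 min (limma adjusted p = 0.0283), where 1674 genes passed in place of 5. Ptpn2 gave -0.99 with the length trend removed (limma adjusted p = 0.120).

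Stat2, whose protein joins IRF9 in ISGF3 and supplies the domain that activates transcription, was at 32.2 and 67.5 FPKM in wild type and 95.6 and 113 in GdX-/- at 90 min, and at 31.5 and 76.2 in wild type and 77.8 in GdX-/- at 6 h. Every GdX-/- library lay above every wild-type library, the closest being 77.8 and 76.2 at 6 h, and wild-type replicate 1 was the lowest library at each time. The difference was 1.14 at 90 min (SE 0.44, limma adjusted p = 0.621), or 2.20-fold, and 0.94 with time as a covariate (SE 0.34, limma adjusted p = 0.125). Fitted on the 4 libraries at 90 min alone, where 181 genes passed, Stat2 passed as well (limma adjusted p = 0.0490), as it did without wild-type replicate 1 or 2 at 6 h (limma adjusted p = 0.0488 and 0.0439). With the length trend removed the difference was 0.62 with time as a covariate (limma adjusted p = 0.207), and without wild-type replicate 1 at 90 min the difference at 90 min was 0.61.

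At 6 h the single GdX-/- library was set beside the wild-type pair as a description. A gene was counted where this library was at least 2-fold away from the pair's mean log2 value and outside both. Socs1 (-1.37 on the log2 scale) and Ptpn2 (-1.23) were counted as lower, where 5.47% of all genes were lower, 16.5% were higher and 22% were counted in either direction. These shares are 622 genes lower and 1879 higher, which became 881 and 951 with quantile normalization, 352 and 2857 with a rescaling that leaves out globin genes, and 938 and 940 with the length trend removed. Stat6, Jak2 and Stat2 lay above both wild-type libraries, as did 54.9% of all genes, at 0.88, 0.68 and 0.65, where the median of all genes was 0.32. That median was -0.02 with quantile normalization and 0.55 with the rescaling without globin genes. Under that rescaling Ptpn2 was at -0.95 and no longer counted, while Stat6 was at 1.15 and counted. Without wild-type replicate 2 as part of the pair 5 members were counted, Stat2, Stat6 and Jak2 among them at 1.28, 1.46 and 1.20. Without wild-type replicate 1 these 3 were at 0.0303, 0.31 and 0.16, where the median of all genes was 0.18, and with the length trend removed at 0.17, 0.45 and 0.15. With the spread pooled over the other groups, limma gave an adjusted p of 0.066 for Ptpn2 and 0.068 for Socs1, and 3.96% of all genes passed. Neutrophil markers were high in this library, with a summed FPKM of 2575 over 9 markers against 1092 and 778 in wild type at 6 h. Most of the 2575 came from S100a8 and S100a9 (1222 and 1102). Of the 9 markers 7 were counted as higher, and 1 lay below both wild-type libraries. The marker sums of B cells, T cells, NK cells, red pulp macrophages, dendritic cells and erythroid cells were higher there too. GdX-/- replicate 2 at 90 min had the highest neutrophil sum, 4369, against 1023 in replicate 1, and was also the lower GdX-/- library at 90 min for Socs1, Cish, Socs2, Ptpn2, Stat4, Stat5a and Stat6. Their part in these values was not tested.

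Within GdX-/-, from 2 libraries at 90 min to 1 at 6 h, Socs1 (-1.88) and Cish (-1.52) were counted as lower, where 1.64% of all genes were, and Socs2 (1.23) as higher, where 4.09% were. Stat4 was just short of 2-fold at -0.96. With the length trend removed Stat4 was counted (-1.23) and Socs2 was not (0.96). Ptpn2 was at -0.45, Stat2 at -0.41, Jak2 at -0.33, Stat6 at -0.23 and Stat5a at -0.57, each outside the pair. In all, 8 members lay below both libraries at 90 min and 1 above, where 15.8% and 56.8% of all genes did. The median of all genes was 0.25, and 187 genes were counted as lower and 465 as higher, which became 325 and 262 with quantile normalization and 333 and 220 with the length trend removed. With the spread pooled, limma called none of the 11378 genes (0%), while 910 (8%) fell under 0.05 before adjustment.

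The wider pathway was followed in lists by role. Of Jak1, Jak3, Tyk2, Stat3 and Stat5b, which encode further kinases and STATs, none passed for time or for genotype with the other as a covariate. With time as a covariate Tyk2 gave 1.06 (SE 0.33, limma adjusted p = 0.109) and Jak3 0.98 (SE 0.29, limma adjusted p = 0.106). At 6 h, Jak1, Jak3 and Tyk2 were counted as higher in the GdX-/- library (1.25, 1.11 and 1.62), where 16.5% of all genes were. Wild-type replicate 1 was the lower of the pair for each. The pair measured 21.97 and 54.65 FPKM for Jak1, 13.27 and 25.71 for Jak3 and 4.52 and 10.6 for Tyk2. The GdX-/- library measured 84.14, 41.15 and 23.68. Among the 5 other SOCS genes Socs3, which limits interleukin-6 signalling, fell with time: it measured 269, 422, 429 and 178 FPKM at 90 min and 71.7, 135 and 57.0 at 6 h. With genotype as a covariate its difference was -1.96 (SE 0.34, limma adjusted p = 0.0146), and Socs4, Socs5, Socs6 and Socs7 gave values from -0.18 to 0.26. Among 12 other negative regulators Usp18, which blocks the interferon receptor, passed as lower (-0.91, limma adjusted p = 0.0419), where 2.65% of all genes did. In the description at 6 h 5 of these 12 were counted as higher in the GdX-/- library and none as lower, beside 16.5% and 5.47% of all genes.

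Of 33 receptor chains 31 were tested. With genotype as a covariate 1 chain passed as higher and 1 as lower, beside 2.79% and 2.65% of all genes. Il12rb1, a chain of the interleukin-12 receptor, rose by 1.70 (SE 0.28, limma adjusted p = 0.0118) and Osmr, the oncostatin M receptor, fell by 1.25 (SE 0.27, limma adjusted p = 0.0292). In wild type alone Epor, the JAK2-coupled erythropoietin receptor, fell as well (-1.29, limma adjusted p = 0.0274), as did erythroid markers, 7 of 8 of which passed as lower in wild type, where 6.32% of all genes did. Epor is itself 1 of these 7. The median of the chains was -0.26, against 0.14 for all genes. None of the chains passed between the genotypes at 90 min or with time as a covariate. In the description at 6 h, 7 chains were counted as higher in the GdX-/- library, Epor (1.85) among them, and 1 as lower, of 31, beside 16.5% and 5.47% of all genes.

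Genes known as targets of these STATs moved with time as follows. Beside each count of calls with genotype as a covariate stand the 2.65% of all genes that passed as lower and the 2.79% that passed as higher. Of 14 STAT5 targets 4 fell and 1 rose, with a list median of -0.32. Pim2 and Pim1, which encode survival kinases, fell (-1.39 and -1.35, limma adjusted p = 0.00822 and 0.0358). The survival gene Bcl2l1 (-1.37) and the cytokine gene Lta (-1.79) fell as well (limma adjusted p = 0.0358 and 0.00905), while Tnfrsf13b, the TACI receptor of B cells, rose by 1.47 (limma adjusted p = 0.0426). Of 25 ISGF3 targets 23 were tested, 2 rose and 4 fell, and the median was -0.05. Usp18 is 1 of these 4 and is also the negative regulator that passed above. Ifit1 and Ifit3, which encode antiviral RNA-binding proteins, fell (-1.80 and -0.99, limma adjusted p = 0.00335 and 0.0223), whereas Oasl2 and Bst2 rose by 1.21 and 1.10 (limma adjusted p = 0.0265 and 0.0449). Of the 7 STAT4 targets none passed with genotype as a covariate, but Tbx21, the T-bet transcription factor gene, and Ifng, the gene of interferon-gamma, rose in wild type by 1.97 and 1.89 (limma adjusted p = 0.00766 and 0.0167), where 4.39% of all genes passed as higher. Ifng measured 9.53 and 10.1 FPKM in wild type and 18.7 and 7.86 in GdX-/- at 90 min, and 35.8 and 42.3 in wild type and 1.99 in GdX-/- at 6 h. Stat4 itself fell in wild type over the same interval. Of 11 STAT6 targets 8 were tested and 3 fell with genotype as a covariate: Fcer2a, the B cell CD23 receptor (-2.10), Mrc1, the macrophage mannose receptor (-2.03), and Ccl24, a chemokine (-1.15; limma adjusted p = 0.0122, 0.00335 and 0.0348). Fcer2a also stands in the B cell marker list. No target passed between the genotypes at 90 min or with time as a covariate. In the description at 6 h, 5 of the 14 STAT5 targets were counted as lower in the GdX-/- library and 1 as higher, Tnfrsf13b (-1.07) being among the lower, where 5.47% and 16.5% of all genes were. Another of the lower targets is also the receptor chain counted as lower above. Of the 7 STAT4 targets 2 were counted as lower, Ifng (-3.74) and Tbx21 (-1.74), and 1 as higher. Of the 23 ISGF3 targets 1 was counted as higher, and of the 8 STAT6 targets 1, Fcer2a (1.34), while none of either list was counted as lower.

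**Figure D4:**
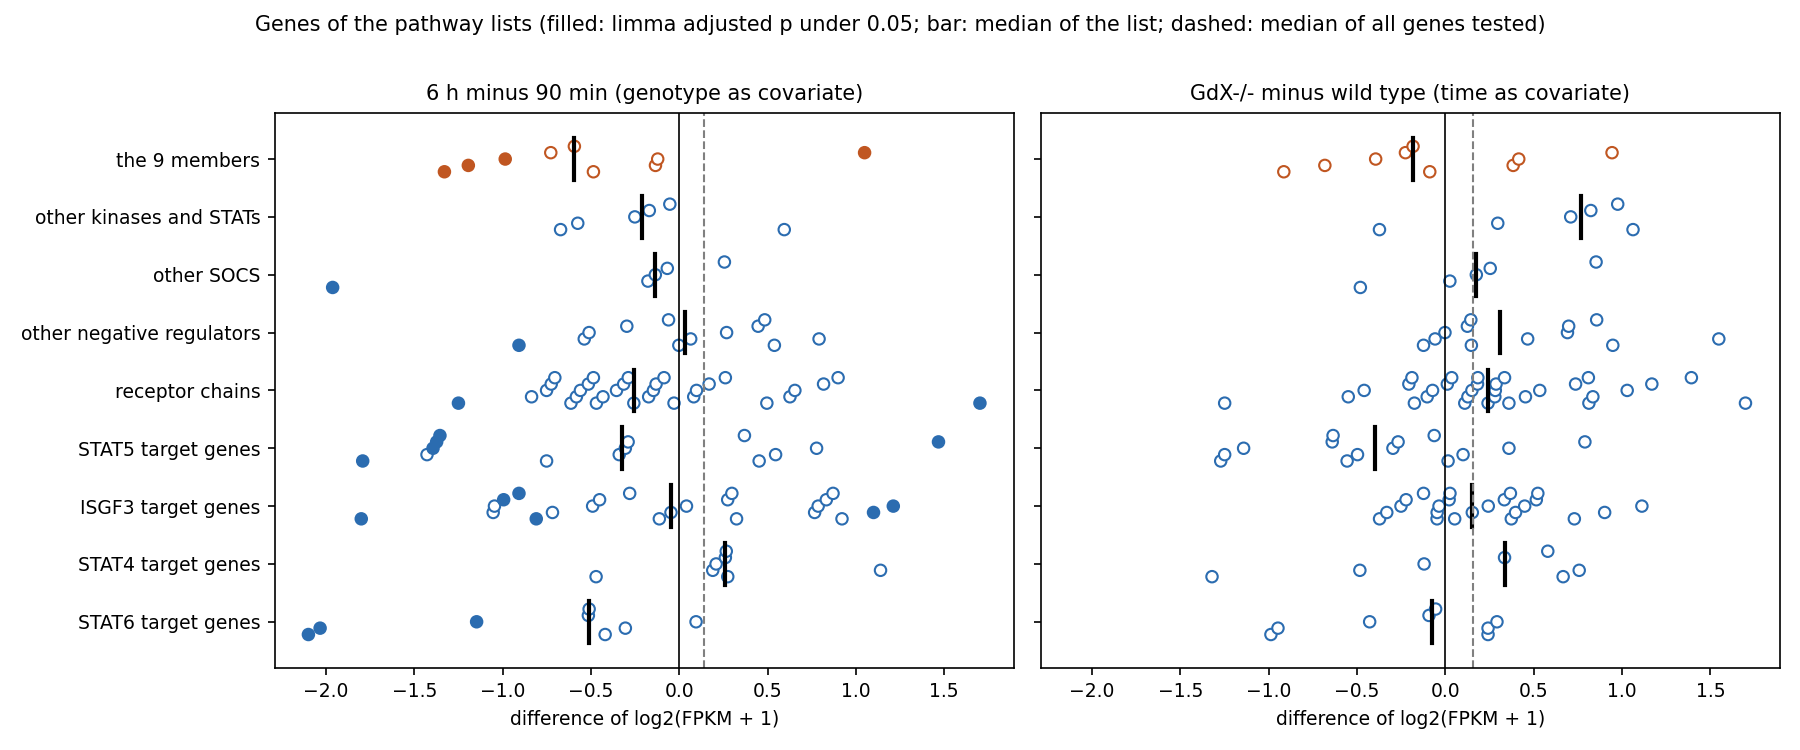
Difference of log2(FPKM + 1) for every tested gene of the 9 members and the 8 pathway lists, for time with genotype as a covariate (left) and genotype with time as a covariate (right). Filled points have a limma adjusted p under 0.05, black bars are list medians and the dashed line is the median of all genes tested; on the right no point is filled.

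Genes with the most similar profile were sought for each member by Pearson's r of log2(FPKM + 1) over the same 7 libraries, which share the group differences, the depth and the length pattern, so each r is a description. Stat6 ran closest to Il4ra, the receptor chain upstream of it (r = 0.998), and Il6st, the gp130 chain (0.996). Socs1 ran closest to Cxcl10, an interferon-induced chemokine gene (0.976), and Rnd1 (0.974). Cxcl10 measured 2355 and 2475 FPKM in wild type and 2194 and 1212 in GdX-/- at 90 min, and 1394 and 1304 in wild type and 360 in GdX-/- at 6 h. Stat4 ran closest to Gem and Cd14 (both 0.986), Stat2 to Fbxo34 (0.990) and Fbxo42 (0.980), and Ptpn2 to Twistnb (0.993). Jak2 ran closest to Rnf139 and Alpk1 (both 0.991), Cish to Ifitm5 and Arid5a (both 0.988), Socs2 to Ctgf (0.982) and Nfe2l1 (0.979), and Stat5a to Clic4 (0.974). Among the members themselves the closest pairs were Stat6 with Jak2 (0.967) and Stat4 with Cish (0.947), and the most opposed was Stat2 with Ptpn2 (-0.804). Stat6 and Stat2 lie 610 kb apart on chromosome 10 of GRCm38.p6 (chr10:127642955-127660987 and chr10:128270498-128292853).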

How the data were processed

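The authors deposited 1 table of FPKM values with 2 decimals, 1 column for each of the 7 libraries, per the file headers. The submitters' processing notes name HISAT, HISAT2 2.0.4, Bowtie2, RSEM and GRCm38.p5, without role or order, and per the labels' protocols the RNA was enriched by oligo dT or depleted of rRNA and read on a BGISEQ-500. FPKM keeps no read counts, so no count test was run, and a few abundant genes can shift all others: globin genes took 7.73% to 30.9% of the FPKM sum. Depth was estimated from the steps of low FPKM values (64.1% to 74.3% of them within 0.15 of whole fragments).

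Values were tested as log2(FPKM + 1) with limma 3.58.1 in R 4.3.3 (trend on mean expression, two-sided, Benjamini-Hochberg over the 11378 genes averaging 1 FPKM or more, threshold 0.05). Differences on this scale understate the change of low genes. A fit of the 4 groups (3 residual degrees of freedom) gave genotype at 90 min, time in wild type and the interaction. Additive fits (4 residual degrees of freedom) gave genotype with time and time with genotype as covariate. With 1 GdX-/- library at 6 h, the comparisons resting on it alone are descriptions. No batch is named in the labels.

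The members and lists were chosen with earlier results of these data known, so counts over them are descriptions. Named genes are the 9 members, Ubl4a, the 2 genes nearest to each member by Pearson's r (leaving out members, antigen receptor segments and predicted genes) and, from each list, up to 4 genes per comparison that passed, by smallest p. Tyk2, Jak1, Jak3, Gm44504 and genes given to complete a small list fall outside this rule. Some genes that the rule or lists name are not reported here. Transcript lengths are medians over the Gencode M21 transcripts matched to the listed accessions. Where none matched, the transcripts linked to the gene identifier were used. Promoters are from RefSeq. A planned comparison of protein sequences was not run. Scripts were tested on simulated data.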

Additional observations from a re-analysis of the deposited data

How the results depend on the processing

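The fits were repeated with a pseudocount of 0.1, without the filter on low values, with a mean FPKM of 5 or more, with quantile normalization, after rescaling without globin genes, with the replicate number as a block, with each library's trend on transcript length removed, without a trend on mean expression, on only the libraries compared, with the spread pooled for the descriptions, and with each library left out. Of the tested differences of the 9 members in 4 comparisons, and of Socs1 in the interaction, 495 were unchanged in direction and side of the threshold, 34 lost and 10 gained a call with the direction kept, and 32 changed sign. No called difference changed sign. Of the described differences 148 moved by less than the spread between replicates and 14 by more. The 148 include every value with no filter, with a mean FPKM of 5 or more and with the pooled spread. These settings cannot move a described difference, so those values say nothing about its stability. The causes were not tested.

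The next counts are of all genes and of members that passed, by limma or, for the 2 descriptions that rest on the single GdX-/- library at 6 h, by the fold rule. For genotype at 90 min (2 genes, 0 members) the 4 libraries alone gave 181 and 1, and the length trend removed gave 0 genes. Leaving out 1 library gave 2 to 183 genes (most without wild-type replicate 2 at 6 h) and 0 to 1 members. For time in wild type (1218 and 1) no filter gave 635 and 0, rescaling without globin genes 708 and 0, and the length trend removed 2397 and 2. The 4 libraries alone and no trend on mean expression each gave 0 members, and leaving out 1 library gave 450 to 1774 genes (without wild-type replicate 1 at 90 min and replicate 2 at 6 h) and 0 to 4 members. For genotype with time as covariate (5 and 0) leaving out 1 library gave 2 to 1674 genes (without the GdX-/- library at 6 h and GdX-/- replicate 1 at 90 min) and 0 to 2 members. For time with genotype as covariate (619 and 4) no filter gave 104 and 0, rescaling 327 genes and the length trend removed 1207, and leaving out 1 library gave 154 to 1204 genes (without wild-type replicate 1 at 90 min and the GdX-/- library at 6 h) and 0 to 3 members. For genotype at 6 h (2501 and 2) the pooled spread gave 450 and 0, and leaving out 1 wild-type library 1887 to 3830 genes and 2 to 5 members, the higher counts without replicate 2. For time in GdX-/- (652 and 3) the pooled spread gave 0 and 0, a pseudocount of 0.1 gave 1033 genes, a mean of at least 5 gave 421, and leaving out 1 library at 90 min 585 to 1336, the higher without replicate 2. The interaction (8 genes, 0 members by limma, 1 member at an unadjusted p under 0.05) gave 0 genes with a pseudocount of 0.1, a mean of at least 5 or rescaling, 3 with no filter, 4 with quantile normalization, 46 with the length trend removed, and 0 to 238 without 1 library (0 without either GdX-/- library at 90 min, 238 without wild-type replicate 2 at 6 h).

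In these 4 comparisons the members whose difference changed sign all had a difference short of the threshold. For genotype at 90 min rescaling gave Stat4 0.00599 and Stat5a 0.0284, and the length trend removed gave Stat6 -0.13, Jak2 -0.00941 and Cish -0.0545. Leaving out 1 library gave Stat5a -0.58 to 0.24, Stat6 -0.28 to 0.39, Socs1 -0.62 to 0.17 and Cish -0.38 to 0.47. For time in wild type quantile normalization gave Stat2 -0.0344 and Ptpn2 -0.0880, and rescaling gave -0.0411 and -0.0412. Leaving out 1 library gave Stat2 -0.55 to 0.69, Stat5a -0.98 to 0.12 and Ptpn2 -0.15 to 0.30. For genotype with time as covariate rescaling gave Stat4 0.0454 and Cish 0.13, and leaving out 1 library gave Cish -0.33 to 0.0912. For time with genotype as covariate leaving out 1 library gave Stat2 -0.48 to 0.14 and Ptpn2 -0.30 to 0.0737. In the interaction, where no member passed under any of 13 alternatives, the sign was kept in 9 of them for Stat4 and Stat5a, 11 for Stat2, 12 for Jak2 and Cish, and 13 for the others.

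Replicate numbers are shared between the groups. The deviations of same-numbered libraries correlated at 0.768 between the wild-type groups, 0.080 between GdX-/- at 90 min and wild type at 6 h, and -0.12 between the genotypes at 90 min. As the correlation was high only between the wild-type groups, the numbers were not treated as pairing the samples. With the number as a block, time in wild type gave 2345 genes and 2 members, genotype with time as covariate 12 genes, the interaction 80 genes, and time with genotype as covariate 765 genes, where the log2 difference of Stat2 changed sign to 0.0483 and Socs1 no longer passed (limma adjusted p = 0.057). With the GdX-/- numbers crossed, an alternative chosen after seeing the data, 2 genes and 0 members passed for genotype at 90 min. The 2 descriptions could not be fitted with a block. Depth is known only as an estimate, so no interval from counting was given.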
